A study of Mus musculus with 2 samples.

Results

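Tight junction genes were followed through single-cell RNA libraries of adult mouse cochlea. The genes were 10 of the 31053 in the deposited tables: the claudins Cldn3, Cldn4, Cldn6, Cldn7, Cldn9, Cldn11 and Cldn14, and the genes Ocln, Marveld2 and Ildr1. They were chosen by symbol, with earlier results of these data known. All 10 had at least 20 counts, as did 17260 of the 31053 genes. Whole cochlear explants came from C57BL/6J mice aged 4 to 6 weeks. The cocktail group was held for 4 days in valproic acid (VPA, 1.5 mM), lithium chloride (LiCl, 8 mM), forskolin (FSK, 20 µM) and the siRNAs siFIR and siMxi1 (0.02 µM each). The vehicle group was held for the same 4 days in sterile water with 0.1% DMSO. Both groups were then given ad.Atoh1, an adenovirus that carries the hair cell regulator Atoh1, for 2 weeks, so no group went without Atoh1. Each group was 1 droplet library made from the dissected sensory epithelium of 5 cultures together. Cells could not be assigned to cultures, so no test of the cocktail was possible and every ratio between the libraries is a description of that pair.

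Tight junctions seal the paracellular space between epithelial cells. Claudins form their strands and set which ions pass, while occludin (Ocln) and tricellulin (Marveld2) are MARVEL proteins, and the angulin Ildr1 brings tricellulin to corners where cells of an epithelium meet. In the cochlea this seal separates potassium-rich endolymph from the perilymph around hair cell bodies, and loss of Cldn9, Cldn11, Cldn14, Ocln, Marveld2 or Ildr1 causes deafness in mice. Cldn14 and Cldn9 are known as claudins that keep cations out, Cldn6 as a claudin of embryonic epithelia, and Cldn11 as the claudin of strial basal cells and of myelin.

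Levels are given as CPM, the UMIs (unique transcript molecules) of a gene per 1000000 UMIs of the same cells. All intervals are 95% and cover counting error only, because PCR copies, cultures and libraries add spread that they do not see. The cocktail library kept 1329 cells with a median of 10391 UMIs and the vehicle library 1584 cells with a median of 12267 UMIs, and they shared 0 barcodes. In a whole library 3 UMIs, the floor used against a count of 0, stood for 0.154 CPM in cocktail and 0.130 CPM in vehicle. Cells were sorted into gates by marker genes that include none of the 10. Epcam, an epithelial adhesion gene, defined 1394 Epcam-positive cells (660 cocktail and 734 vehicle), split into 10 gates named by their markers. A further 308 cells (106 and 202) fell into 4 gates set up as mesenchymal, called mesenchyme below. Epcam-positive cells that passed no other marker threshold (689 cells) are called other Epcam-positive cells. The hair bundle gate (Ptprq, Cabp2, Loxhd1 and Tmc1) also held Pou4f3 at 236 CPM, Espn at 2089 CPM and Otof at 550.1 CPM, genes it was not chosen on. It rests on 31 vehicle cells and 5 cocktail cells. Gates rich in the neuropeptide genes Gal and Cck held only 1.07 CPM of Pou4f3 where Otof reached 100 CPM. The deep cells not placed in that gate held 2.32 CPM of Pou4f3 and 12.5 CPM of Otof. These gates are therefore called by their markers alone. Of the mesenchymal gates, 3 held Pdgfrb at 84.0 to 189.8 CPM. The Opcml or Mfap4 gate (69 cells) went against its name, with 10.3 CPM of Pdgfrb, 1.47 of Pdgfra and 185 of Vim beside 2068 of Cck and 455 of Gal, so results on mesenchyme are also given without it, an alternative chosen after the data were seen.

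The genes lie in 3 close pairs and 4 separate places on GRCm38. Cldn3 (ENSMUSG00000070473, chr5:134986214-134987472, plus strand) and Cldn4 (ENSMUSG00000047501, chr5:134945119-134946934, minus strand) are neighbours 39.3 kb apart with 0 other genes of the tables between them. Cldn6 (ENSMUSG00000023906, chr17:23679249-23682446, plus) and Cldn9 (ENSMUSG00000066720, chr17:23682584-23684026, minus) point at each other with 137 bases between their ends. Ocln (ENSMUSG00000021638, chr13:100496507-100552718, minus) and Marveld2 (ENSMUSG00000021636, chr13:100595957-100616971, minus) are 43.2 kb apart with 1 gene between. Cldn7 (ENSMUSG00000018569, chr11:69964779-69967885, plus), Cldn14 (ENSMUSG00000047109, chr16:93919031-94008837, minus), Ildr1 (ENSMUSG00000022900, chr16:36693978-36726804, plus) and Cldn11 (ENSMUSG00000037625, chr3:31149920-31164324, plus) stand alone.

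Promoter windows of the epithelial genes and of Cldn11, the gene of the opposite pattern, were searched for motifs. The windows run from 250 bases before to 50 bases after the first transcribed base (RefSeq, GRCm38.p6, strand of the gene). The search covered 14 windows of 9 of the 10 genes, because Cldn9 had no window. The E-box CACCTG is the motif read by the Snail and Zeb repressors, which switch off epithelial genes. Searched on both strands (CAGGTG is its reverse reading), it was present in 10 windows, covering all 8 epithelial genes that had one, and absent from that of Cldn11. Overlapping windows of Ocln and of Marveld2 share a match, and Cldn7 and Cldn14 also had windows without one. Over all genes 22.6% of 27025 had the E-box in a window, and 20.2% of 32851 windows held it. Lacking it, as Cldn11 did, was thus the more common state. The grainyhead-like motif AACCNGTT, also searched on both strands, was in 0 of the 14 windows and in 2.09% of all. A match describes letters in these windows and not binding. The E-box is in capitals in the windows of Cldn3 and Cldn4, the neighbours, of Ocln and, for contrast, of Cldn11.
Cldn3 (chr5:134985964-134986263, plus): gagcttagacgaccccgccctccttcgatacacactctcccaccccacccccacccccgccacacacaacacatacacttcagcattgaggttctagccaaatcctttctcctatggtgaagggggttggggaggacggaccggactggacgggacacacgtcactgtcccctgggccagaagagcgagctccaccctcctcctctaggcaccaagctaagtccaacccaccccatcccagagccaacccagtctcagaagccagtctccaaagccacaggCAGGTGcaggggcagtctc
Cldn4 (chr5:134946885-134947184, minus): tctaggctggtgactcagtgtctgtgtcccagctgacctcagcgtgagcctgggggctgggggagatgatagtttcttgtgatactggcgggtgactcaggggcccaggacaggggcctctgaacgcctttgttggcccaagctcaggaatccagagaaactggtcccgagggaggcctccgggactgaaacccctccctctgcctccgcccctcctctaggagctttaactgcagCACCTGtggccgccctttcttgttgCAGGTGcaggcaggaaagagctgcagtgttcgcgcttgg
Ocln, first window (chr13:100552449-100552748, minus): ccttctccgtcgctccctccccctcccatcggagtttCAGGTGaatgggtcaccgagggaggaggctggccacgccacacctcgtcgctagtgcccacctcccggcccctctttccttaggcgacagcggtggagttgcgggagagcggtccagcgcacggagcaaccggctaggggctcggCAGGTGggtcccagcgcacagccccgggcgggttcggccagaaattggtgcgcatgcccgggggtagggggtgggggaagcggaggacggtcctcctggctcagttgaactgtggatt
Cldn11 (chr3:31149670-31149969, plus): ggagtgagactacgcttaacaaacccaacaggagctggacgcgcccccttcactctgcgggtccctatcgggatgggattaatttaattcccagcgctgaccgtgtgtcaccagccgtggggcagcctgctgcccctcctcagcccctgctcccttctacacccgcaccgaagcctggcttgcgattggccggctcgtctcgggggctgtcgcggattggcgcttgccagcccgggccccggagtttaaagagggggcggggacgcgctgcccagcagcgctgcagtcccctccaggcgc
The Cldn3 match lies at positions 31 to 36, counted from 0 at the first transcribed base. Cldn4 had a match at -14 to -9 and another at 11 to 16, and the Ocln window had matches at -213 to -208 and -68 to -63. Ildr1, which brings tricellulin to the cell corners, had a match at -88 to -83. Among 1464 genes with a window that were at least 4-fold higher in Epcam-positive cells than in mesenchyme, 38.0% held the E-box. The share was 16.3% of 717 genes at least 4-fold higher in mesenchyme and 20.3% of 9790 genes in between, with 1.29, 1.28 and 1.28 windows per gene. Base composition of the windows was not matched in these shares.

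Of the 10 genes, 9 belonged to the epithelium and Cldn11 to the mesenchyme. At least 4-fold higher levels in Epcam-positive cells were seen for 9 of 10 genes, against 13.1% of 16124 genes tested. The count was again 9 in the cocktail library alone (12.7% of all genes) and in the vehicle library alone (12.9%). The median log2 ratio of the 10 genes was 8.42 with 0.5 added to each count, beside 0.22 over all genes, and 7.48 with genes at 0 in mesenchyme set to their bound. Cldn9 stood at 235 CPM in Epcam-positive cells and 0.142 CPM (1 UMI) in mesenchyme, and Cldn7, which also binds Epcam along lateral membranes, at 274 and 0.853 CPM. Cldn3 stood at 226 and 0.284 CPM, Cldn4 at 95.5 and 0.142 CPM, and Cldn14 at 47.3 and 0.142 CPM. The claudins of the epithelium were thus nearly silent in mesenchyme, where their counts ran from 0 to 6 UMIs. Cldn6 had 28.3 CPM in epithelium and 0 UMIs in mesenchyme, at least 6.05 on the log2 scale against the floor of 3 UMIs. Ildr1 had 42.1 CPM and 0 UMIs, at least 6.63 on the log2 scale. Marveld2 had 21.4 and 0.284 CPM, a log2 ratio of 6.23 (4.37 to 9.28). Ocln differed least of the 9, with 49.0 CPM in epithelium and 2.28 CPM (16 UMIs) in mesenchyme, a log2 ratio of 4.43 (3.72 to 5.24). Of those 16 UMIs 11 were in cells with osteoblast markers (5.37 CPM).

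Cldn11 ran the other way. It stood at 1.66 CPM in Epcam-positive cells and 18.8 CPM in mesenchyme, a log2 ratio of -3.50 (-4.08 to -2.96). The ratio was -4.11 (-4.96 to -3.33) in cocktail and -3.01 (-3.86 to -2.24) in vehicle, and 6.65% of all genes were at -2 or lower in both libraries summed. Without the Opcml or Mfap4 gate 239 mesenchymal cells held 15.5 CPM of Cldn11, a log2 ratio of -3.23 (-3.84 to -2.65), and the count of genes at least 4-fold higher in epithelium was again 9. Cldn3, Cldn4, Cldn6, Marveld2 and Ildr1 then had 0 UMIs in mesenchyme.

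**Figure D1:**
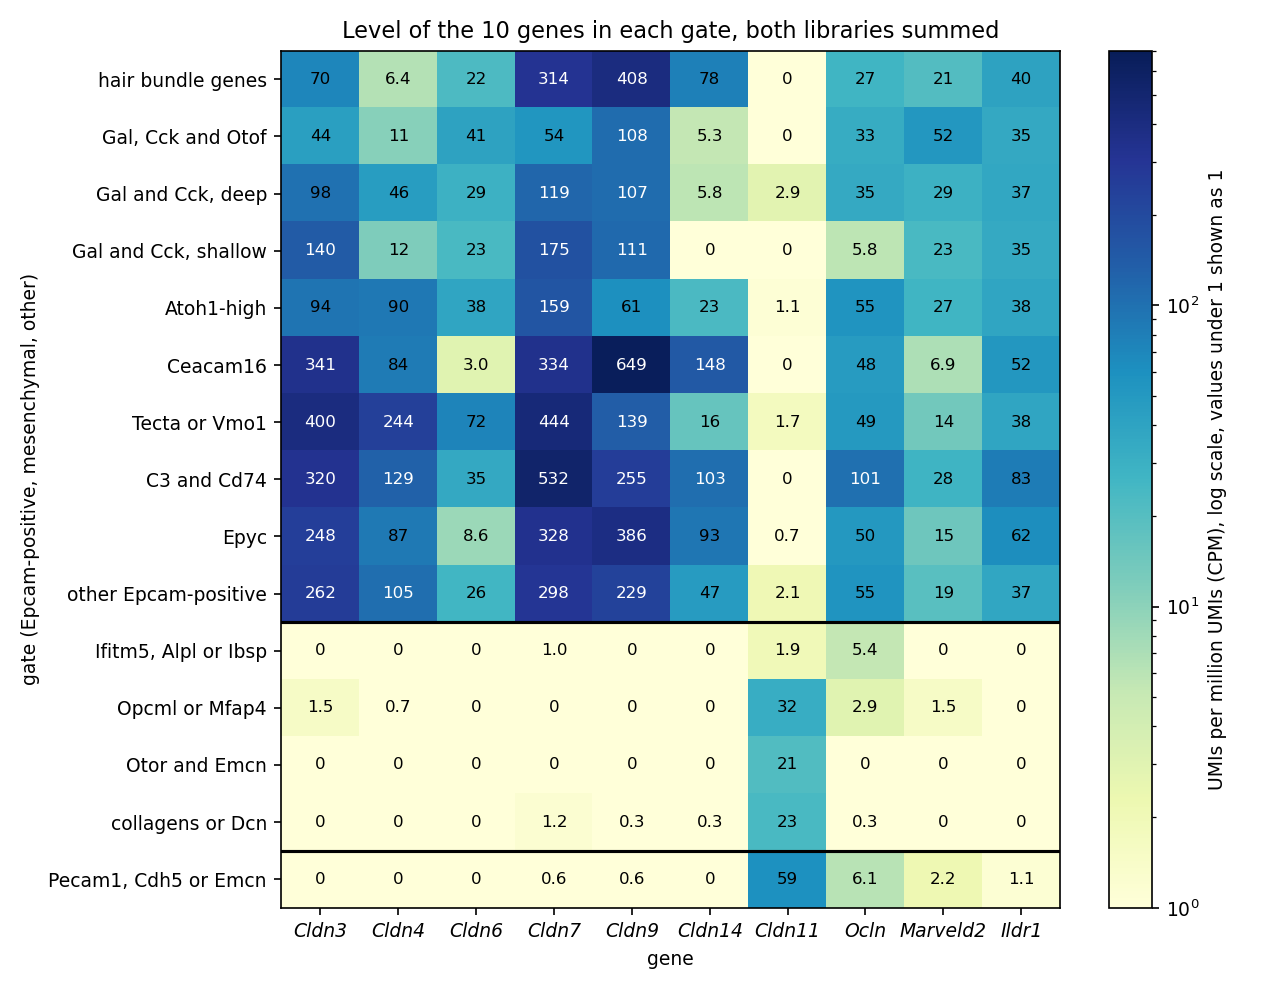
Rows are gates, columns the 10 genes, and colour and digits give CPM with both libraries summed (log colour scale, values under 1 coloured as 1). The 9 epithelial genes fill the upper block above the first black line, where Cldn9 peaks at 649 CPM. Cldn11 is raised in some of the lower rows, up to 59.2 CPM, and is 1.95 CPM in the osteoblast row.

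The epithelial gates differed in which claudin led. Of the UMIs of the 6 epithelial claudins over all Epcam-positive cells, Cldn7 held 30.2%, Cldn9 25.9%, Cldn3 25.0%, Cldn4 10.6%, Cldn14 5.22% and Cldn6 3.12%. These shares compare 3′ UMI counts, in which each transcript is counted near its end and no correction for length applies. The Ceacam16 gate (89 cells, with Otoa, a gene of interdental cells, at 348 CPM) was led by Cldn9 with 41.6% and had 9.47% Cldn14 and 0.191% Cldn6. The gate of Tecta, a gene of the tectorial membrane, or Vmo1 (95 cells) was led by Cldn7 with 33.8% and Cldn3 with 30.4%, and had 10.6% Cldn9 and 1.22% Cldn14. Both gates carried a high claudin total, 1559 and 1315 CPM for the 6 genes. The Epyc gate (156 cells) had 33.5% Cldn9, 28.5% Cldn7 and 8.05% Cldn14 of 1151 CPM. Cldn9 led there in cocktail, with 36.3% beside 27.8% Cldn7, and both stood at 29.6% in vehicle.

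The hair bundle gate (36 cells) had its own mixture. Cldn9 held 45.4% and Cldn7 34.9% of 899 CPM, Cldn14 held 8.69%, Cldn3 7.80% and Cldn4 0.709% (4 UMIs). The deep Gal and Cck gate (155 cells of 5000 UMIs or more, apart from 69 shallow ones) had a lower total of 405 CPM, of which Cldn7 held 29.3%, Cldn9 26.5%, Cldn3 24.2% and Cldn14 1.43%. In cocktail Cldn7 led with 33.6% and Cldn4 held 6.13%, and in vehicle Cldn3 led with 26.4% and Cldn4 held 17.3%. Gal and Cck cells with Otof (34 cells) had the lowest total, 262 CPM, of which Cldn9 held 41.2% and Cldn6 15.5%. The Atoh1-high gate (51 cells) had 465 CPM, led by Cldn7 with 34.3%. In the C3 and Cd74 gate (20 cells, of which 6 also passed the collagen threshold) Cldn7 held 38.7% of 1373 CPM. Gates rich in Gal and Cck or in Atoh1 thus carried a smaller total of these 6 claudins than the others. Cldn8 and Cldn12, given below for Gal and Cck cells, are not part of that total. Mesenchyme held 1.56 CPM of the 6 together, from 11 UMIs.

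**Figure D2:**
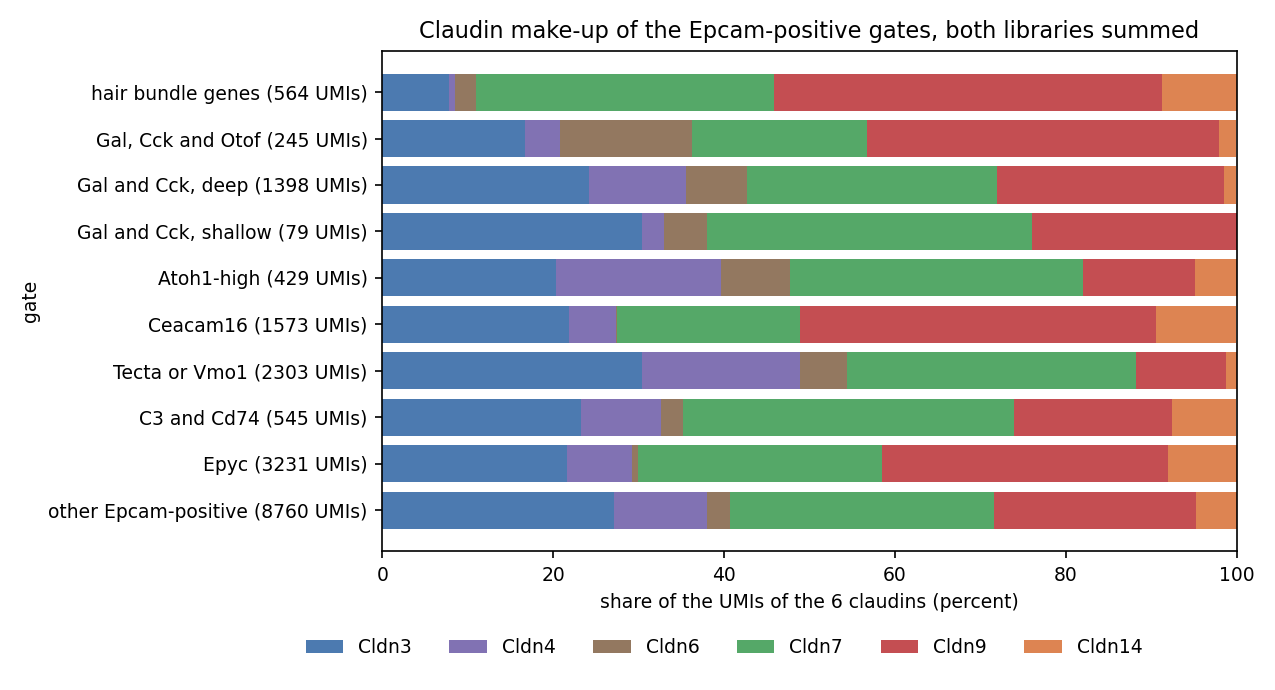
Each bar is an Epcam-positive gate and splits the UMIs of the 6 epithelial claudins into percent shares, both libraries summed, with the number of UMIs in brackets. The Cldn9 share is widest in the hair bundle gate (45.4%), the Ceacam16 gate (41.6%) and Gal and Cck cells with Otof (41.2%), and 10.6% in the Tecta or Vmo1 gate.

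Cldn9 was highest in the Ceacam16 gate, at 649 CPM (600.3 to 701). It stood at 626 CPM in the cocktail cells of that gate and 701 CPM in the vehicle cells, whose intervals overlap. The hair bundle and Epyc gates followed at 408 and 386 CPM and did not differ beyond counting error (log2 ratio 0.08, -0.12 to 0.28). The Atoh1-high gate was lowest with 60.7 CPM, 62.2 in cocktail and 59.0 in vehicle. With halved thresholds it held 119.9 CPM, and the deep Gal and Cck gate was lowest at 98.1 CPM. Between the Ceacam16 and the Tecta or Vmo1 gates the log2 ratio was 2.23 (2.01 to 2.44). It was 1.40 in cocktail and 2.73 in vehicle, and the Tecta or Vmo1 cells held 238 CPM in cocktail (22 cells) and 106 CPM in vehicle (73 cells). Cldn9 was thus higher in Ceacam16 cells in both libraries, by different amounts. The Tecta or Vmo1 cells also differed in markers, with Epyc at 779 CPM in cocktail and 108 CPM in vehicle. Vmo1 stood at 503 and 2314 CPM in them, and Tecta at 891 and 647 CPM. The part of these differences in the Cldn9 levels was not tested.

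Cldn14 shared its 4 highest gates with Cldn9. It was highest in the Ceacam16 gate with 148 CPM, 153 in cocktail and 135 in vehicle (125 CPM thinned to 5000 UMIs, below 158 CPM in the C3 and Cd74 gate), then 103 CPM in the C3 and Cd74 gate, 92.6 CPM in the Epyc gate and 78.1 CPM in the hair bundle gate. Neighbours among these last 3 did not differ beyond counting error. The deep Gal and Cck gate held 5.79 CPM, and the hair bundle gate exceeded it by 3.75 on the log2 scale (2.98 to 4.58), or by 4.55 (3.21 to 6.25) in vehicle cells alone. Shallow Gal and Cck cells had 0 UMIs, where 3 UMIs would be 17.5 CPM. In the Tecta or Vmo1 gate Cldn14 stood at 48.0 CPM in cocktail and 5.33 CPM in vehicle, and at 16.0 CPM with both libraries summed. However, 11 of its 28 UMIs were in 1 cocktail cell, and the summed level without that cell was 9.83 CPM. Without barcodes that also passed the collagen threshold, which left 90 of 95 cells, the summed level was 4.19 CPM. With all cells of both gates, the log2 ratio of Ceacam16 over Tecta or Vmo1 cells was 1.68 in cocktail and 4.66 in vehicle.

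Cldn6 peaked where Cldn14 was low. It was highest in the Tecta or Vmo1 gate with 72.0 CPM, 75.4 in cocktail and 70.8 in vehicle. With doubled thresholds it held 68.9 CPM, beside 73.3 CPM in the C3 and Cd74 gate. It was lowest in the Ceacam16 gate with 2.97 CPM, from 3 UMIs in cocktail and 0 in vehicle, and next lowest in the Epyc gate with 8.55 CPM, a step within counting error. The log2 ratio of the Ceacam16 over the Tecta or Vmo1 gate was -4.60 (-6.89 to -3.02). Neighbours among the 7 gates between 22.3 and 40.7 CPM did not differ beyond counting error. In the Atoh1-high gate Cldn6 stood at 14.0 CPM in cocktail and 66.0 CPM in vehicle. Cldn6 and Cldn9, whose genes converge on chromosome 17, thus peaked in different gates.

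Cldn4 was highest in the same gate as Cldn6. The Tecta or Vmo1 gate held 244 CPM, 256 in cocktail and 239.8 in vehicle. The Ceacam16 gate held 84.2 CPM, lower by a log2 ratio of -1.53 (-1.89 to -1.19) that was -1.55 in cocktail and -1.64 in vehicle. Cldn4 was near absent from the hair bundle gate, at 6.38 CPM (1.74 to 16.3), with 3 of its 4 UMIs in 1 cell, and stood at 10.7 CPM in Gal and Cck cells with Otof. Single cells carried much of its level in small gates. Of 83 UMIs in the Atoh1-high gate 48 were in 1 cocktail cell, without which the 90.0 CPM became 40.1 CPM, and of 51 UMIs in the C3 and Cd74 gate 31 were in 1 cell, without which 129 CPM became 57.4 CPM.

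**Figure D3:**
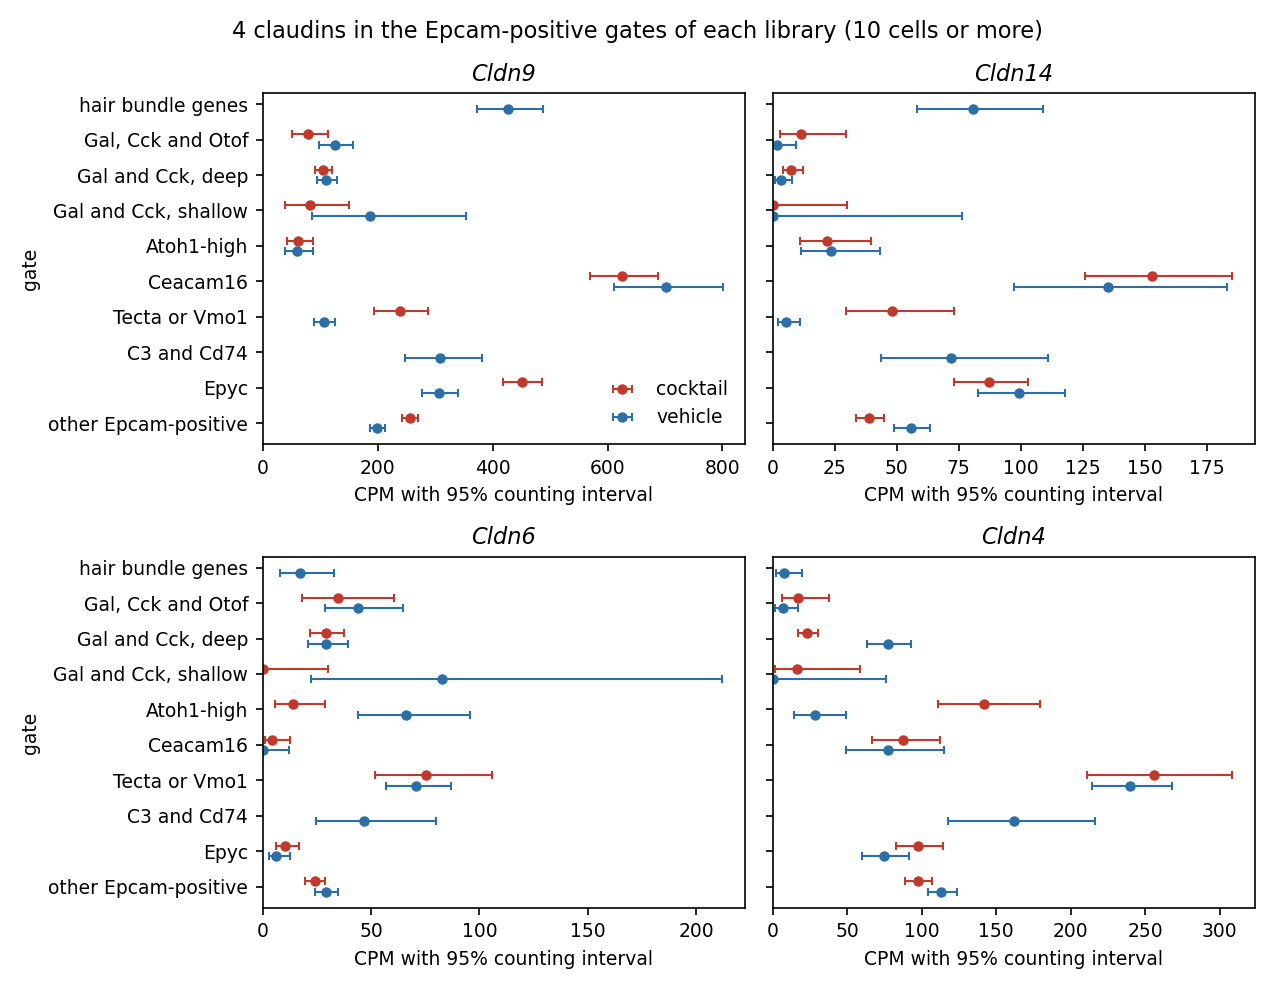
Each panel gives the CPM of a claudin in the Epcam-positive gates of the cocktail (red) and vehicle (blue) library, with 95% counting intervals, for gates with at least 10 cells of a library. Cldn9 and Cldn14 are highest in the Ceacam16 gate of both libraries, Cldn6 and Cldn4 in the Tecta or Vmo1 gate, apart from the Cldn6 value of the shallow vehicle cells, which rests on 4 UMIs.

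Cldn3 and Cldn7, like the other epithelial genes except Cldn14, were found in all 10 epithelial gates. Cldn3, which like Cldn4 is a receptor of a clostridial enterotoxin, ran from 400.3 CPM (371 to 431) in the Tecta or Vmo1 gate and 341 CPM in the Ceacam16 gate to 43.9 CPM in Gal and Cck cells with Otof. The step from highest to lowest was 3.19 on the log2 scale (2.73 to 3.68). The Ceacam16 and Tecta or Vmo1 gates, which were far apart for Cldn9 and Cldn6, were close for Cldn3: 317 and 356 CPM in cocktail, 396 and 415 CPM in vehicle, with log2 intervals that held 0 in each library. Cldn7 ran from 532 CPM in the C3 and Cd74 gate and 444 CPM in the Tecta or Vmo1 gate (434 and 459.8 CPM with doubled thresholds) to 53.5 CPM in Gal and Cck cells with Otof, where it was 23.2 CPM in cocktail and 71.2 CPM in vehicle. The hair bundle gate separated these claudins, with 314 CPM of Cldn7 and 70.2 CPM of Cldn3. Against the deep Gal and Cck gate, hair bundle cells had a log2 ratio of 1.40 (1.15 to 1.65) for Cldn7 and -0.48 (-0.97 to -0.03) for Cldn3. With doubled thresholds the order of these gates turned for Cldn3, with 97.8 CPM in hair bundle and 86.1 CPM in deep Gal and Cck cells.

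The other 3 epithelial genes, Ildr1, Ocln and Marveld2, had different orders. Ildr1 ran from 83.2 CPM in the C3 and Cd74 gate through 62.0 CPM in the Epyc gate, 62.1 in cocktail and 61.9 in vehicle, to 35.0 CPM in shallow Gal and Cck cells. No gate differed from its neighbour in this order beyond counting error. The highest over the lowest, which rests on 6 UMIs, gave 1.25 on the log2 scale (-0.03 to 2.79). Gates further apart did differ. The interval of the Epyc gate (53.1 to 71.9 CPM) lay above those of deep Gal and Cck cells (36.8 CPM, 30.7 to 43.8) and other Epcam-positive cells (37.3 CPM, 33.5 to 41.5). With doubled thresholds the Epyc gate was highest at 69.3 CPM. Ocln lay between 27.1 and 55.3 CPM in 8 gates, at 101 CPM in the C3 and Cd74 gate and at 5.84 CPM (1 UMI) in shallow Gal and Cck cells. The C3 and Cd74 gate exceeded the next one beyond counting error (0.87, 0.23 to 1.49) at the thresholds used. Its level was 65.2 CPM with halved thresholds, and with doubled ones the Ceacam16 gate was highest at 65.9 CPM. Marveld2, which encodes tricellulin, was highest in Gal and Cck cells with Otof at 52.4 CPM, 75.4 in cocktail and 39.0 in vehicle. Thinned to 5000 UMIs per cell these cells held 29.4 CPM, below the 36.1 CPM of deep Gal and Cck cells. Unthinned, deep Gal and Cck cells followed at 29.3 CPM, 27.0 and 32.4. The Ceacam16 gate, highest for Cldn9 and Cldn14, was lowest for Marveld2 at 6.94 CPM, from 7 UMIs. Deep Gal and Cck cells exceeded it by 2.08 on the log2 scale (0.98 to 3.43), by 1.65 in cocktail and 3.33 in vehicle. The gap between Gal and Cck cells with Otof and deep Gal and Cck cells was 1.48 (0.75 to 2.18) in cocktail. It was 0.27 (-0.52 to 1.02) in vehicle, so it was not detectable in the latter.

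Over the 10 epithelial gates, Cldn9 and Cldn14 had a Pearson r of 0.85, Cldn3 and Cldn7 0.82, and Cldn3 and Cldn4 0.81, computed on log2(CPM + 10). Marveld2 had -0.75 with Cldn3 and -0.12 with its chromosomal neighbour Ocln, and Cldn6 had -0.73 with Cldn9. The gates share both libraries and differ in depth, so these values describe 10 points.

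Cldn11 was spread over several non-epithelial gates. The Pecam1, Cdh5 or Emcn gate (130 cells) held 59.2 CPM, 65.6 in cocktail and 53.3 in vehicle. The Opcml or Mfap4 gate, which was low in mesenchymal genes, held 32.4 CPM, 39.7 and 28.0, and the collagens or Dcn gate 23.3 CPM, 28.5 and 18.0. Osteoblast-marker cells (Ifitm5, Alpl or Ibsp) held 1.95 CPM, the lowest of the 4 mesenchymal gates. No Epcam-positive gate exceeded 2.90 CPM, and 5 of the 10 had 0 UMIs. Of all Cldn11 UMIs 45.5% lay in ungated cells (20.1 CPM), 21.1% in the Pecam1, Cdh5 or Emcn gate and 15.6% in the collagens or Dcn gate.

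The Pecam1, Cdh5 or Emcn gate was not a pure vessel gate. Only 36 of its 130 cells had at least 2 UMIs of the endothelial genes Pecam1 and Cdh5, and these held the vessel claudin Cldn5 at 210.4 CPM and Cldn11 at 49.8 CPM. The other 94 cells (61 cocktail and 33 vehicle) held 0 UMIs of Cldn5, Emcn at 884 CPM, the otoraplin gene Otor at 900.4 CPM, the mesenchymal gene Pdgfra at 179 CPM, and Cldn11 at 63.2 CPM, 62.9 and 63.8 by library. With a vessel gate on Pecam1 and Cdh5 alone, an alternative chosen after the data were seen, that gate had 26 cells and 5.23 CPM of Cldn11, while mesenchyme had 349 cells and 26.1 CPM. The Otor and Emcn gate then had 36 cells and 44.6 CPM of Cldn11, and 0 UMIs of each of the 9 epithelial genes. Kcne1, a marker of strial marginal cells, did not exceed 1.90 CPM in any gate.

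**Figure D4:**
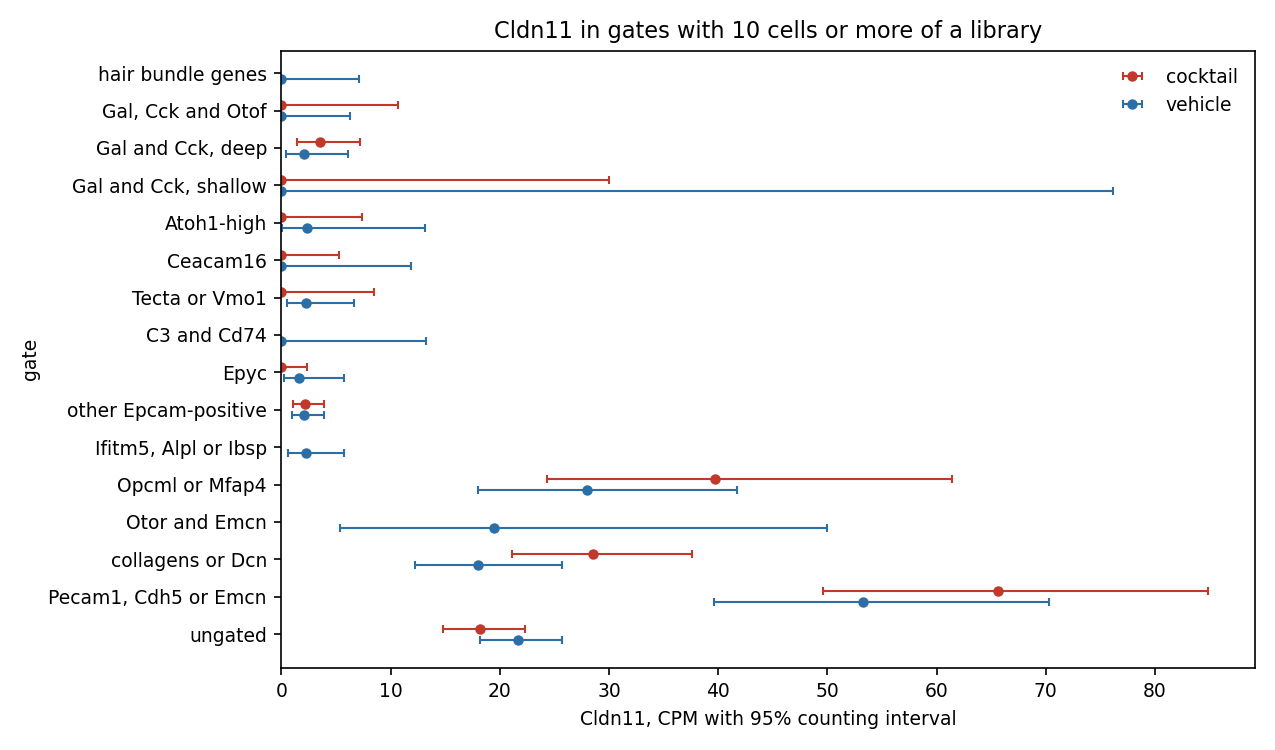
Points give Cldn11 in CPM by gate for the cocktail (red) and vehicle (blue) library with 95% counting intervals, for gates with at least 10 cells of a library. The Pecam1, Cdh5 or Emcn gate is highest, at 65.6 and 53.3 CPM, and no Epcam-positive gate exceeds 3.50 CPM.

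Single cells carried several of these genes at once. After every cell was thinned to 5000 UMIs, 1012 Epcam-positive cells had a median of 3 of the 10 genes, 54.9% had at least 3 and 8.99% had none. Of 279 mesenchymal cells 92.8% had none and 0 had 3 or more. Ceacam16 cells had a median of 4 genes and Gal and Cck cells with Otof a median of 1. In the same thinned Epcam-positive cells, Cldn4 was detected in 37.5% of cells with Cldn3 and in 14.3% of cells without it. Cldn14 was detected in 24.9% of cells with Cldn9 and 9.11% without, and in 6.11% of cells with Cldn6 and 18.6% without. Marveld2 was detected in 13.4% of cells with Ocln and 7.91% of cells without. Cldn9 was detected in 42.0% of cells with Cldn6 and 51.3% of cells without, so many cells with Cldn6 also held Cldn9. Each of these differences had the same direction in both libraries. In thinned mesenchyme, as a background, each of the 9 epithelial genes was detected in at most 2 of the 279 cells, or 0.717% for Ocln.

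None of the 10 genes was 2-fold higher or lower in cocktail, where 3.62% of 17260 genes were at least 2-fold higher and 5.01% at least 2-fold lower. The largest difference was that of Cldn9, at 146 CPM in cocktail and 97.1 CPM in vehicle, a log2 ratio of 0.59 (0.51 to 0.67). Counting intervals lay above 0 for 5 of the 10 genes, against 17.0% of all genes, and below 0 for 1 gene, against 22.8%. Beside Cldn9, the 4 above 0 were Marveld2 (13.2 and 10.5 CPM, 0.34), Ocln (29.0 and 23.7 CPM, 0.29), Ildr1 (24.6 and 20.3 CPM, 0.28) and Cldn14 (26.5 and 21.9 CPM, 0.28). Cldn3 lay below 0, at 110.2 CPM in cocktail and 118 CPM in vehicle. The values of the other 4 had intervals that held 0: 136 and 142 CPM for Cldn7, 48.0 and 49.3 for Cldn4, 13.9 and 16.2 for Cldn6, and 12.3 and 11.6 for Cldn11. The median log2 ratio was 0.18 for the 10 genes and -0.03 over all genes.

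Within Epcam-positive cells most of these library differences looked different. These cells held 54.1% of the UMIs of the cocktail library and 45.8% of those of the vehicle library. Per UMI of Epcam-positive cells, Cldn14 stood at 47.7 and 46.9 CPM, Ocln at 49.4 and 48.6 CPM, Marveld2 at 21.8 and 20.9 CPM, and Ildr1 at 41.9 and 42.4 CPM. Their log2 ratios ran from -0.02 to 0.05 with intervals that held 0. The levels of these 4 genes over all epithelial cells were thus close. The part of the larger epithelial share of UMIs in their higher library levels was not tested. Cldn9 stayed higher within epithelium, at 262 CPM in cocktail and 207 CPM in vehicle, a log2 ratio of 0.34 (0.26 to 0.42). It was the only gene above 0, against 13.4% of 15373 genes. The median log2 ratio in Epcam-positive cells was -0.05 for the 10 genes and -0.05 over all genes. The intervals of 4 genes lay below 0, against 21.2% of genes: Cldn3 at 199 and 253 CPM (-0.34), Cldn4 at 86.5 and 105 CPM (-0.28), Cldn7 at 245 and 302 CPM (-0.30) and Cldn6 at 23.4 and 33.2 CPM (-0.51). Cells of the Tecta or Vmo1 gate, highest or second for these 4 claudins, numbered 22 in cocktail and 73 in vehicle. Ceacam16 cells, highest for Cldn9, numbered 63 and 26, and the part of these numbers in the ratios was not tested.

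With 13 gates weighted alike in both libraries, an alternative chosen after the data were seen, the log2 ratio of the whole libraries was 0.33 for Cldn9. It was -0.29 for Cldn3, -0.18 for Cldn7, -0.20 for Cldn6, -0.08 for Cldn4 and 0.07 for Cldn11. Cldn14 turned from 0.28 to -0.09 in that weighting, and Ocln, Marveld2 and Ildr1 gave 0.13, 0.17 and 0.09. The 13 gates were those with at least 10 cells in each library. Among those left out were the hair bundle gate (5 cocktail cells) and the C3 and Cd74 gate (8), both among the highest for Cldn14. The parts of the weighting and of the gates left out in this turn were not tested.

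**Figure D5:**
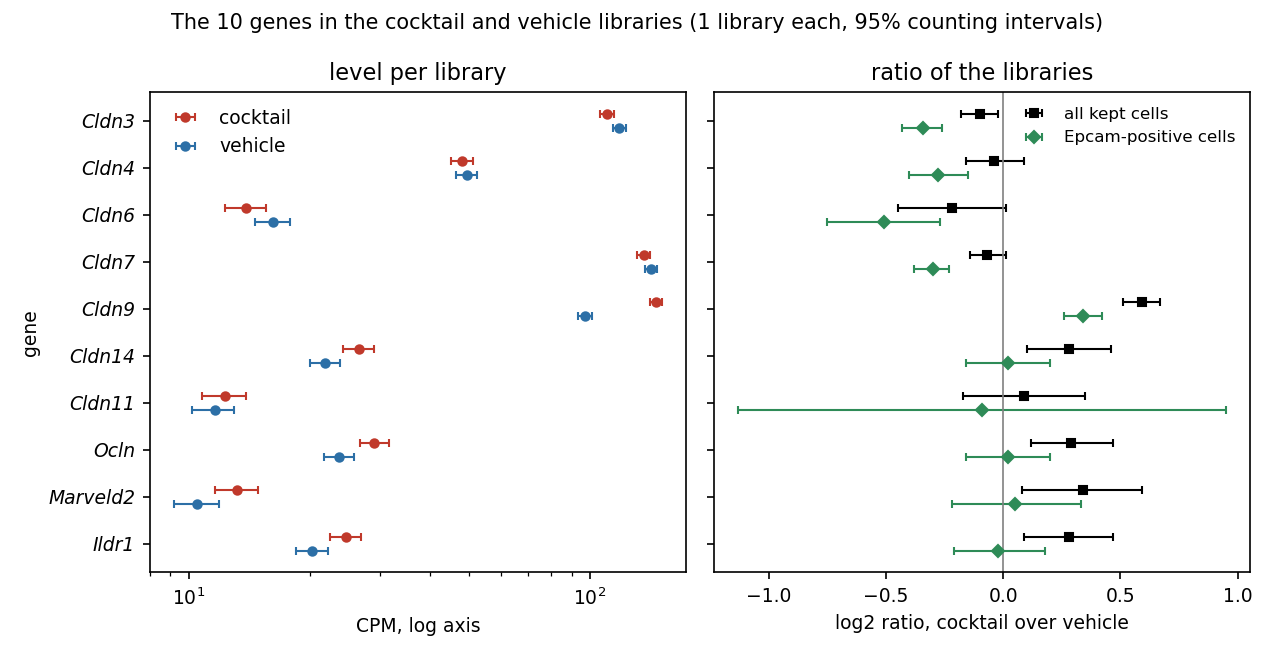
The left panel gives the CPM of each gene in the cocktail (red) and vehicle (blue) library on a log axis. The right panel gives the log2 ratio over all kept cells (black squares) and over Epcam-positive cells (green diamonds) with 95% counting intervals, where Cldn9 alone lies above 0 in both.

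Inside single gates with at least 50 cells per library, Cldn9 was higher in cocktail in some and not in others. In the Epyc gate it stood at 451 CPM in cocktail (76 cells) and 306 CPM in vehicle (80 cells), a log2 ratio of 0.56 (0.38 to 0.74). In other Epcam-positive cells it stood at 256 and 199.5 CPM (0.36, 0.23 to 0.49). Within that mixed gate, split after the data were seen, Cldn9 was lower in cocktail in cells with Gal but not Cck (108 and 154 CPM) and in Sox2 or Slc1a3 cells (251 and 324 CPM). It was higher in cells with at least 100 CPM of Ceacam16 but below its gate's threshold (549 and 457 CPM). It was also higher in the 384 cells left (276 and 158 CPM). In deep Gal and Cck cells it stood at 105 and 110.3 CPM (-0.07), with an interval that held 0. The higher level of Cldn9 was thus not seen in the Gal and Cck cells. These cells had 23.0 CPM of Cldn4 in cocktail and 77.2 CPM in vehicle, a log2 ratio of -1.75 (-2.28 to -1.24), but with doubled marker thresholds, which left 92 of the 155 cells, the ratio was 0.20. Cldn3 in them stood at 83.9 and 118 CPM (-0.49), with a ratio of 0.33 under doubled thresholds. Other Epcam-positive cells had 39.0 CPM of Cldn14 in cocktail and 55.8 CPM in vehicle (-0.52, -0.80 to -0.23). Sox2 or Slc1a3 cells among them held 30.8 and 165 CPM, and the 384 cells left ran the other way, with 31.2 and 20.7 CPM. Cldn11 in mesenchyme stood at 27.7 CPM in cocktail and 13.8 CPM in vehicle (1.01, 0.49 to 1.53), and at -0.02 under doubled thresholds, which left 188 of 308 cells. Without the Opcml or Mfap4 gate the levels were 24.7 and 10.4 CPM (1.24, 0.61 to 1.89). Osteoblast-marker cells, which held little Cldn11, were 9 of 106 mesenchymal cells in cocktail and 65 of 202 in vehicle, and their part in that ratio was not tested. Ungated cells had higher Cldn9 (15.2 and 7.13 CPM), Ocln (6.46 and 2.59 CPM), Marveld2 (5.32 and 2.27 CPM) and Ildr1 (6.84 and 3.24 CPM) in cocktail. Their median depth was 2612 UMIs in cocktail and 8476 in vehicle. The ratio of ungated cells turned to -0.29 for Cldn9 under doubled thresholds and to -0.04 for Marveld2 with the mean of per-cell CPM. Among all 941 ungated cells 143 passed the Gal and Cck levels without enough Epcam.

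Other tight junction genes, 63 in all with 28 further claudin symbols, were listed for comparison. Of the 28 claudins 13 had 0 UMIs, 9 had 50 or more and 6 lay between. At least 4-fold higher levels in Epcam-positive cells than in mesenchyme were seen for 19 of 41 measured genes and at least 4-fold lower levels for 4. The 19 include Epcam, whose place was fixed because it defined the Epcam-positive cells. Between the libraries 1 of 44 was at least 2-fold higher in cocktail and 5 at least 2-fold lower. The backgrounds are the 13.1%, 6.65%, 3.62% and 5.01% of all genes given above, and the share that was higher in cocktail was near its background. Tjp1, the scaffold ZO-1, had 253 CPM in cocktail and 78.1 CPM in vehicle, with 3480 of its 4948 cocktail UMIs in 1 cell, and 75.2 and 75.5 CPM without the cell with most UMIs in each library. Cgnl1, the junction protein paracingulin, had 31.7 and 110.5 CPM, with 968 of its 2543 vehicle UMIs in 1 cell, and 24.5 and 68.5 CPM without such cells. The vessel genes Cldn5 (0 and 5.17 CPM) and Esam (0.154 and 7.04 CPM) and the Schwann cell claudin Cldn19 (1.33 and 4.78 CPM) were lower in cocktail. Cells with 2 or more UMIs of Pecam1 and Cdh5 in the vessel gate numbered 6 in cocktail and 30 in vehicle. Their part in these levels was not tested. Marveld1 had 4.35 and 8.30 CPM and Jam3 17.8 and 31.2 CPM. Highest in Epcam-positive cells were Epcam itself (1146 CPM), which defined them, the protease inhibitor Spint2 (945 CPM) and Vapa (302 CPM). Highest in mesenchyme were Vapa (254 CPM), Ybx3 (227 CPM) and the polarity gene Pard3 (144 CPM).

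Other claudins added to the make-up of single gates. Cldn8 stood at 75.3 CPM in deep Gal and Cck cells and 37.7 CPM in the Tecta or Vmo1 gate. Cldn12 stood at 95.2 CPM in Gal and Cck cells with Otof and 60.8 CPM in deep Gal and Cck cells. Cldn23 stood at 31.7 CPM in the Epyc gate. Cldn10, a claudin that forms ion pores, stood at 137 CPM in other Epcam-positive cells and at 11.7 CPM or less in all others. Its library levels were 9.78 CPM in cocktail and 49.5 CPM in vehicle, with 111 of 191 cocktail UMIs in 1 cell, and 4.11 and 44.3 CPM without the cell with most UMIs in each library.

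The genes whose pattern over 15 gates was most like that of each junction gene, among 11427 compared by Pearson r of log2(CPM + 10), were mostly epithelial. For Cldn3 they were Wfdc2 and Bik (0.97) and the polarity gene Pard6b (0.96). For Cldn4 they were Baiap2l1, the grainyhead-like factor Grhl2 and the keratin Krt18 (0.94 each). Cldn7 was most like the sodium pump subunit Atp1b1 and the polarity gene Crb3 (0.98) and Wfdc2 (0.97), and Cldn9 most like Atp1b1, the calcium binding gene S100a1 (0.98) and Fbxo2 (0.97). Cldn14 was most like Snx22, Gal3st3 and Acss3 (0.95), and Cldn6 most like Cbarp (0.94), the signalling ligand Wnt4 (0.92) and Nipal2 (0.90). Marveld2 was most like Nipal2 (0.98), the actin regulator Eps8l2 (0.94) and Zfp750 (0.93), Ocln most like Rbm47 (0.96), Grhl2 (0.95) and the protease St14 (0.94), and Ildr1 most like the keratin Krt8 (0.98) and Fbxo2 (0.97). Cldn11 was most like the transcription factors Lef1 (0.99), Foxf2 and Ebf2 (0.96). These values are across gates that share libraries and mostly separate epithelium from the rest.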

How the data were processed

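RNA was measured in 2 droplet libraries, 1 per group. Each deposited matrix gives unnormalised UMI counts for every gene in every barcode, and Cell Ranger 5.0.0 wrote it per the file headers. STAR and Seurat 3.2.2 appear in the submitters' processing notes with no role stated. Depth was 19625208 UMIs in the cocktail library and 23108868 in the vehicle library, and 3 counts were the floor against 0.

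Barcodes with at least 500 UMIs, 300 genes and at most 20% mitochondrial UMIs were kept, which removed 74 and 104. Doublets were not removed. An alternative left out 30 Epcam-positive barcodes that passed the collagen threshold. Gates were read per barcode from marker CPM in a fixed order, and Epcam-positive meant at least 1 UMI and 100 CPM of Epcam. Within Epcam-positive cells the thresholds were, in order, 400 CPM for the hair bundle genes summed, 2000 CPM of Gal with 1000 CPM of Cck (and 100 CPM of Otof where named), 200 CPM of Atoh1, 1000 CPM of Ceacam16, 500 CPM of Tecta and Vmo1 summed, 500 CPM of C3 with 200 CPM of Cd74, and 500 CPM of Epyc. Outside them they were 500 CPM for macrophage and vessel genes, 500 CPM for osteoblast genes and for Opcml with Mfap4, 1000 CPM of Otor with 100 CPM of Emcn, and 2000 CPM for collagens with Dcn and Lum. UMIs were summed per gate and library. Intervals are exact Poisson (levels) and exact conditional binomial (ratios). Background shares and lists used genes with at least 20 UMIs. For medians of ratios 0.5 was added to each count. For shares of cells with a UMI, cells were thinned to 5000 UMIs, which left out 504 cocktail and 426 vehicle cells.

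All 10 genes were given in the comparisons of epithelium with mesenchyme and of the whole libraries, and some of them in other comparisons. Of other tight junction genes with at least 50 UMIs, the 8 with the largest ratio between libraries were named, and the 3 highest in epithelium and in mesenchyme. The 3 genes most like each in pattern were named among genes with at least 200 UMIs. A gate outside the epithelium, set before the mesenchymal gates, and 1 of the most like genes are not reported here. Other claudins by gate were chosen after their values were seen. The genes and lists were chosen with earlier results of these data known. Gene coordinates are those of GENCODE M21, where 31011 of the 31053 identifiers were found. Ratios and intervals were tested on simulated data. Alternatives changed the barcode filter, thresholds, weighting, thinning and single cells. Python 3.11.15, numpy 2.4.6, scipy 1.17.1, pandas 2.3.3 and matplotlib 3.10.9 were used.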

Additional observations from a re-analysis of the deposited data

How the results depend on the processing

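The count of 0 genes past 2-fold between the libraries and the count of 9 genes past 4-fold between epithelium and mesenchyme held under every alternative run. The median ratio of the libraries moved from 0.18 to 0.07 with the mean of per-cell CPM. It was 0.18 to 0.20 in the other alternatives for which it was computed. It was not computed with gates weighted alike, and within Epcam-positive cells it was -0.05. Among ratios between the libraries, directions turned in 6 values. With gates weighted alike Cldn14 gave -0.09 over the whole library. With doubled thresholds the deep Gal and Cck cells gave 0.33 for Cldn3 and 0.20 for Cldn4, ungated cells -0.29 for Cldn9 and mesenchyme -0.02 for Cldn11. With the mean of per-cell CPM ungated cells gave -0.04 for Marveld2. The highest gate changed with doubled thresholds for Cldn6, Cldn7, Ocln and Ildr1, and with thinning for Cldn14 and Marveld2. The cause was not tested. Of the other values, 903 gate levels stayed within their counting interval and 137 moved, as did 51 and 8 ratios of whole libraries and 158 and 33 ratios within gates. No paired analysis was possible because each group has 1 library. Depth limits the levels that rest on few UMIs, such as Cldn6 in the Ceacam16 gate (3), Cldn4 in the hair bundle gate (4) and Ocln in shallow Gal and Cck cells (1).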

Other observations

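The other Epcam-positive cells were split by markers after the data were seen. In 36 of them (6 cocktail and 30 vehicle) Cldn10 had at least 2 UMIs and stood at 1946 CPM. These cells held Cldn7 at 572 CPM, Cldn3 at 354 CPM and Cldn4 at 211 CPM, beside 51.9 CPM of Cldn9, 0 UMIs of Cldn14 and 5.19 CPM of Marveld2 (3 UMIs). In 66 cells with at least 2 UMIs of the supporting cell genes Sox2 and Slc1a3 together, Cldn9 stood at 294 CPM and Cldn14 at 111 CPM, with 30.8 CPM of Cldn14 in the 22 cocktail cells and 165 CPM in the 44 vehicle cells. In 62 cells with at least 100 CPM of Ceacam16, but below the gate's threshold, Cldn9 stood at 522 CPM, Cldn14 at 158 CPM and Cldn6 at 10.2 CPM. In 141 cells with Gal but without enough Cck, Cldn14 stood at 7.77 CPM and Marveld2 at 30.2 CPM.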
